A study of Mus musculus with 6 samples.

Results

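The TNF ligand and receptor superfamilies were followed in blood-forming stem cells, sorted from the marrow of C57BL/6J mice into cells with and without the chemokine receptor CCR2 on their surface. Members were taken by symbol: every gene named Tnfsf or Tnfrsf with a number, and Tnf, Lta, Ltb, Ltbr, Fas, Fasl, Cd27, Cd40, Cd40lg, Cd70, Ngfr and Eda2r. This gave 41 of the 22180 genes measured, 26 receptors and 15 ligands, each read by 1 probe set. A further 2 probe sets list a family member together with other genes and were not used, so Tnfsf12 and Tnfsf13 are not analysed here. Each of the 6 arrays held RNA from 1 pool of sorted cells made from the marrow of 20 mice, with 3 CCR2-positive and 3 CCR2-negative pools. No treatment or genetic change is named. The sources used here do not give the age and sex of the animals, the other markers of the sort, or whether a positive and a negative pool came from the same animals. Values are log2 intensities after the authors' RMA processing, and a difference is the mean of the CCR2-positive pools minus the mean of the CCR2-negative pools, with its standard error from limma.

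TNF family ligands are mostly trimeric proteins on the cell surface, some of them shed, and their receptors are cysteine-rich membrane proteins that signal once the ligand clusters them. A group of the receptors has a death domain in the cytoplasm and can start caspase-driven cell death, and most of the others recruit TRAF adaptors that lead to NF-kB and JNK. A few receptors are secreted or lack a signalling tail and act as decoys. In the marrow, TNF acts on stem cells through TNFR1 and TNFR2, and CD27 is used as a surface marker of stem and progenitor cells.

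The labels were checked first. Ccr2, the gene of the sorted receptor, had log2 values of 6.81, 7.10 and 6.18 in the CCR2-positive pools and of 5.63, 6.26 and 5.83 in the CCR2-negative pools, so the third positive pool lay among the negative ones (difference 0.79 ± 0.24, limma adjusted p = 0.274). Array medians were 5.48 to 5.58. Of 10 stem cell markers 8 were measured, and Kit, the stem cell factor receptor, had values of 9.67 to 10.25 over all pools. Each of the 8 had a lower mean with CCR2 than without, beside 44% of all genes. Of these, 6 had an unadjusted limma p under 0.05, beside 6.61% of all genes lower at that level. The mean of the list was 7.20 to 7.52 in positive and 7.79 to 8.15 in negative pools. All 7 measured erythroid markers were higher, 6 of them at that level, beside 5.63% of all genes higher at it. Their list means were 8.78 to 9.29 in positive and 8.12 to 8.55 in negative pools. Monocyte and macrophage markers were higher in 7 of 8 cases, 4 of them at that level, with list means of 6.52 to 6.74 against 6.16 to 6.28. Neutrophil list means overlapped, at 5.98 to 7.41 and 5.65 to 6.64, with 2 of 8 markers higher and 0 lower at that level. B cell list means were 5.07 to 5.30 and 5.02 to 5.09, with Ms4a1, which encodes CD20, at 3.46 to 3.77 over all pools. T and NK cell list means were 5.28 to 5.49 and 5.25 to 5.34. Dendritic cell means were 6.15 to 6.41 and 6.21 to 6.34, megakaryocyte means 7.71 to 8.09 and 7.78 to 8.21, and stromal and endothelial means 5.67 to 5.92 and 5.71 to 5.88. At an unadjusted p under 0.05, 2 of 6 megakaryocyte and 1 of 7 dendritic cell markers were lower and 0 higher. The scale has no 0, so no marker could be called absent. The part of these shifts in the results below was not tested, and in pooled cells fewer cells with a transcript and less transcript per cell cannot be told apart.

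With limma and Benjamini-Hochberg adjustment over the 22180 genes, 0 of 41 members were called at 0.05, beside 0% of all genes, and the smallest adjusted p of a member was 0.177. Unadjusted p-values lay under 0.05 for 9 members, 6 lower and 3 higher in CCR2-positive pools, beside 12.2% of all genes (6.61% lower and 5.63% higher). The lower ones were the receptors Tnfrsf26, Tnfrsf1a, Cd27 and Tnfrsf1b and the ligands Tnfsf10 and Tnfsf4, and the higher ones were the ligands Lta, Tnfsf8 and Tnfsf13b. The median difference was -0.06 over the 26 receptors, of which 15 were lower, and 0.06 over the 15 ligands, of which 6 were lower. Over all genes it was 0.03, with 44% of genes lower. The ligand median turned to -0.014 with cyclic loess, while the receptor median was -0.085 to -0.038 under the scalings tried. Array weights gave a receptor median of -0.022. Probe sets above the median alone left 14 receptors and 5 ligands. Their medians were -0.177 for receptors and -0.449 for ligands, beside -0.02 over all genes under that filter. Leaving out CCR2-positive replicate 1 gave a median of -0.122 for receptors and 0.116 for ligands, and leaving out CCR2-negative replicate 1 gave -0.04 and 0.113. The receptor median was -0.033 when CCR2-negative replicate 2 was left out and -0.037 when CCR2-positive replicate 3 was, and the ligand median was 0.17 when CCR2-positive replicate 2 was.

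**Figure D1:**
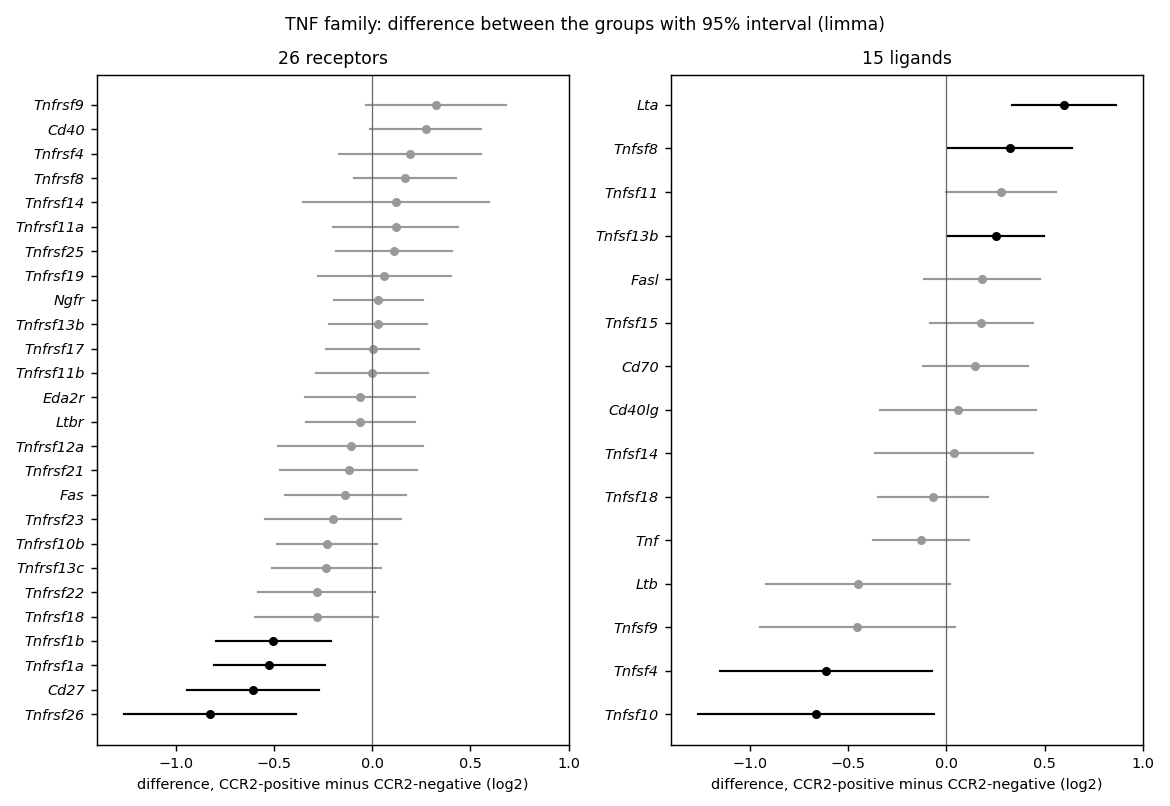
Difference between CCR2-positive and CCR2-negative pools (log2, x axis) for each of the 26 receptors and 15 ligands (y axis), with points for the difference and bars for its 95% interval from limma. Members at an unadjusted p under 0.05 are black and the others grey; 4 black receptors lie left of 0, and the 5 black ligands lie on either side of it.

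Receptors of TNF itself were lower in every CCR2-positive pool than in any CCR2-negative pool. Tnfrsf1a encodes TNFR1, the death domain receptor of TNF, and had values of 6.80, 6.80 and 7.09 in the CCR2-positive pools and of 7.56, 7.35 and 7.36 in the CCR2-negative pools. The difference was -0.52 ± 0.12, or 1.44-fold, with a limma adjusted p of 0.188 (unadjusted p = 0.0024). Tnfrsf1b encodes TNFR2, which binds TRAF2 and has no death domain. Its values were 6.69, 6.85 and 6.77 in positive and 7.43, 7.03 and 7.36 in negative pools, a difference of -0.50 ± 0.13 (1.42-fold, limma adjusted p = 0.221). The nearest pools for Tnfrsf1b, at 6.85 and 7.03, came from the second replicate of each group, and for Tnfrsf1a, at 7.09 and 7.35, from the third positive and the second negative pool.

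Cd27, a costimulatory receptor of the CD70 ligand, had values of 8.25, 8.21 and 8.67 in the CCR2-positive pools and of 9.04, 9.07 and 8.82 in the CCR2-negative pools. The groups did not overlap, but the third pools of each sort were close. The difference was -0.61 ± 0.15, or 1.52-fold (limma adjusted p = 0.201). Its ligand Cd70 had values of 3.70, 3.80 and 4.04 in positive and 3.71, 3.75 and 3.64 in negative pools, under the 25th percentile of all probe sets (4.34), with a difference of 0.15 ± 0.12.

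The promoter stretches of Tnfrsf1a, Tnfrsf1b and Cd27 are shown because these are the receptors at an unadjusted p under 0.05 that have an entry in the promoter table; Tnfrsf26, the fourth, has none. They were taken from RefSeq (GRCm38.p6), run 5′ to 3′ along the gene, and end at the base before the outermost annotated transcript. That is chr6:125349473-125349722 on the plus strand for Tnfrsf1a, chr4:145246871-145247120 on the minus strand for Tnfrsf1b and chr6:125237137-125237277 on the minus strand for Cd27. The Cd27 stretch has 141 bases and the others 250, because the start given for Cd27 in the promoter table lies inside a longer annotated transcript, whose bases were left out. Capitals mark matches to the 5 motifs searched on either strand.
Tnfrsf1a: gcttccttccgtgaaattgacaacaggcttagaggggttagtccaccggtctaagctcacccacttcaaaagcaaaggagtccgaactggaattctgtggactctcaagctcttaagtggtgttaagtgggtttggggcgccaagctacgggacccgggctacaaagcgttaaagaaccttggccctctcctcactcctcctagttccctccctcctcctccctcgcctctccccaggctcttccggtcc
Tnfrsf1b: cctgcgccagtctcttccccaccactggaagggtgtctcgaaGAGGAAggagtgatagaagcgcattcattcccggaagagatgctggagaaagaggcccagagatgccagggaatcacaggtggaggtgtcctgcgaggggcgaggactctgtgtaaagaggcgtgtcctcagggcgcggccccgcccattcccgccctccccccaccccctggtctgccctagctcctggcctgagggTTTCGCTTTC
Cd27: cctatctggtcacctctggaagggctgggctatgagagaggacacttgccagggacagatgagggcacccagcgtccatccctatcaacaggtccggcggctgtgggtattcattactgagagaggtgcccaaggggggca
The Tnfrsf1b stretch holds GAGGAA, the core bound by the myeloid ETS factor PU.1, and, next to the transcript start, the reverse strand of GAAA, any 2 bases and GAAA, a form of the element bound by interferon regulatory factors. These matches do not overlap. The other 2 stretches hold no match to the letters searched, and neither does the full window of 250 bases before the table's start of Cd27.

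Over the 250 bases before each RefSeq start, this element of paired GAAA was found in 2.98% of 32851 windows and in those of 4 of the 32 members with an entry, Tnfrsf1b, Tnfrsf14, Tnfrsf17 and Tnfsf13b. GAGGAA was in 23.25% of all windows and in those of 13 members. A form of the NF-kB site, GGG, any 2 bases and TTTCC, was in 1.41% of all windows and in those of Ltb, Tnfrsf9 and Tnfrsf25. AGATAA, a motif of the factors that drive erythroid genes, was in 9.99% of all windows and in those of 1 member, Tnfsf13b. A RUNX motif, TGTGGT, was in 14.05% of all windows and in those of Tnfrsf13c and Tnfrsf25. Some members have several starts, so these 32 members gave 36 windows.

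In the list of secreted and decoy-type receptors, Tnfrsf26, Tnfrsf22 and Tnfrsf23 had lower means in the CCR2-positive pools, and Tnfrsf11b was nearly equal in both groups. Tnfrsf26 is on this list, but its role as a decoy was not tested. Tnfrsf26, a receptor gene without a death domain that sits beside the decoy receptors of TRAIL in the mouse genome, had the largest difference of the 41 members. Its values were 6.75, 6.34 and 6.37 in CCR2-positive and 7.72, 7.11 and 7.10 in CCR2-negative pools. The difference was -0.83 ± 0.19, or 1.77-fold (limma adjusted p = 0.187), and the first pool of each sort was the highest of its group. Tnfrsf22 and Tnfrsf23 encode TRAIL decoys that are close copies of each other, so their probes may share signal. Tnfrsf22 had 6.42, 6.72 and 6.50 in positive and 6.96, 6.90 and 6.63 in negative pools (-0.28 ± 0.13, limma adjusted p = 0.424), with the groups overlapping. Tnfrsf23 had 4.43, 4.29 and 4.51 in positive and 4.30, 4.85 and 4.68 in negative pools (-0.20 ± 0.15). Tnfrsf11b encodes osteoprotegerin, the secreted decoy of RANKL, and had 5.63, 5.39 and 5.22 against 5.40, 5.38 and 5.46. Its difference of -0.001 ± 0.12 had a 95% interval of -0.28 to 0.28, and it turned to 0.078 with array weights, 0.023 without CCR2-negative replicate 3, and 0.011 and 0.096 when the second or the third positive pool was left out.

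**Figure D2:**
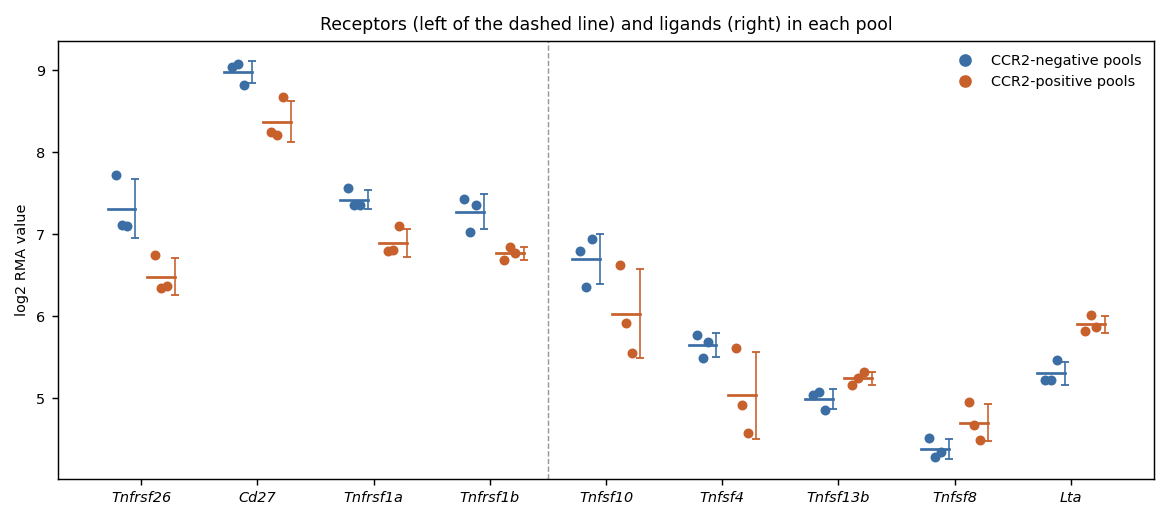
Log2 value (y axis) of the 9 members at an unadjusted p under 0.05 in each CCR2-negative (blue) and CCR2-positive (orange) pool, with a line for the mean and a bar for the SD of 3 pools. The 4 receptors lie lower and Lta and Tnfsf13b higher with no overlap between groups, beside 7.88% of all genes lower and 10.8% higher. The 9 were picked at that level from these same pools, so this adds no support. The first positive pool of Tnfsf10 and Tnfsf4 lies among the negative ones, and the third positive pool of Tnfsf8 lies below its highest negative one. Heights of different genes are not comparable.

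The remaining death domain receptors differed by less. Tnfrsf10b, the mouse death receptor of TRAIL, had 5.40, 5.23 and 5.48 in CCR2-positive and 5.58, 5.70 and 5.51 in CCR2-negative pools. These groups did not overlap, but only just, and the difference was -0.23 ± 0.11 (limma adjusted p = 0.442). Fas, the receptor of Fas ligand, had 4.05, 4.03 and 4.03 in positive and 4.41, 3.91 and 4.19 in negative pools (-0.14 ± 0.14), and its mean lay under the 25th percentile of probe sets. Tnfrsf21, which encodes death receptor 6, had 7.88, 7.79 and 7.46 against 8.05, 7.62 and 7.82, and its difference of -0.12 ± 0.15 turned to 0.0041 without CCR2-positive replicate 3. Tnfrsf25, death receptor 3 of lymphocytes, differed by 0.11 ± 0.13. Ngfr, the p75 neurotrophin receptor, differed by 0.03 ± 0.10, which turned to -0.007 after a second quantile normalization and to -0.038 with cyclic loess.

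Among the 16 TRAF-binding receptors, 7 were lower, or 43.8% beside 44% of all genes, and 9 higher. Cd27 and Tnfrsf1b, 12.5% of the 16, were lower at an unadjusted p under 0.05, beside 6.61% of all genes. At that level 0 were higher, beside 5.63% of all genes. Ltbr, the lymphotoxin beta receptor, had 7.93, 7.75 and 7.59 in CCR2-positive and 7.73, 7.93 and 7.79 in CCR2-negative pools. Its difference of -0.06 ± 0.12 had a 95% interval of -0.34 to 0.22 and turned to 0.021 after a second quantile normalization. Tnfrsf18, which encodes GITR, had 6.99, 7.07 and 7.22 in positive and 7.27, 7.64 and 7.22 in negative pools (-0.28 ± 0.14, limma adjusted p = 0.447). The highest positive and the lowest negative pool of Tnfrsf18 were nearly equal.

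Receptors of the B cell factor BAFF gave small differences. Tnfrsf13c, the BAFF receptor, had 6.95, 6.85 and 6.80 in CCR2-positive and 7.21, 7.20 and 6.89 in CCR2-negative pools, with a difference of -0.23 ± 0.12. Tnfrsf13b, which encodes TACI, had 4.88, 5.10 and 5.16 against 5.00, 5.06 and 5.00, and its difference of 0.03 ± 0.11 turned to -0.013 after a second quantile normalization and to -0.049 with cyclic loess. Tnfrsf17, which encodes BCMA, had 4.52, 4.68 and 4.52 against 4.49, 4.61 and 4.61. Its difference was 0.001 ± 0.10, and it turned to -0.030 after a second quantile normalization, -0.022 with median centring and -0.067 with cyclic loess.

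A few costimulatory receptors were higher in the CCR2-positive pools without reaching an unadjusted p of 0.05. Cd40, the receptor of antigen-presenting cells for CD40 ligand, had 6.16, 6.18 and 6.49 in positive and 6.10, 5.90 and 6.01 in negative pools (0.27 ± 0.12, limma adjusted p = 0.421). Tnfrsf9, which encodes 4-1BB, differed by 0.32 ± 0.16, but its mean lay under the 25th percentile of probe sets. Tnfrsf4, which encodes OX40, had 6.29, 6.76 and 6.43 against 6.42, 6.05 and 6.45 (0.19 ± 0.16), and Tnfrsf8, which encodes CD30, had 4.95, 4.79 and 5.10 against 4.69, 4.82 and 4.83 (0.17 ± 0.11). In each of these receptors other than Cd40 the groups overlapped. Tnfrsf14, the herpesvirus entry mediator, differed by 0.12 ± 0.21, Tnfrsf11a, the RANK receptor of osteoclast precursors, by 0.12 ± 0.14, and Tnfrsf12a, the receptor of TWEAK, by -0.11 ± 0.16. Tnfrsf19, an orphan receptor also called TROY, differed by 0.06 ± 0.15, which turned to -0.008 with cyclic loess, and Eda2r, a receptor of ectodysplasin, by -0.06 ± 0.12.

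Over the 26 receptors, 6 had every CCR2-positive pool below every CCR2-negative pool, beside 7.88% of all genes: Tnfrsf26, Cd27, Tnfrsf1a, Tnfrsf1b, Tnfrsf18 and Tnfrsf10b. In the other direction 1 receptor, Cd40, had groups that did not overlap, beside 10.8% of all genes. Tnfrsf26, Cd27, Tnfrsf1a and Tnfrsf1b kept an unadjusted limma p under 0.05 in each of 15 alternative analyses, 6 of which leave out 1 pool. They were picked at that level from the same arrays, so keeping it is no independent support. How many of all genes keep it was not counted. Their adjusted p-values in these alternatives ran from 0.112 to 0.515 for Tnfrsf1a, 0.118 to 0.515 for Cd27, 0.118 to 0.546 for Tnfrsf1b and 0.139 to 0.475 for Tnfrsf26, so none passed 0.05.

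**Figure D3:**
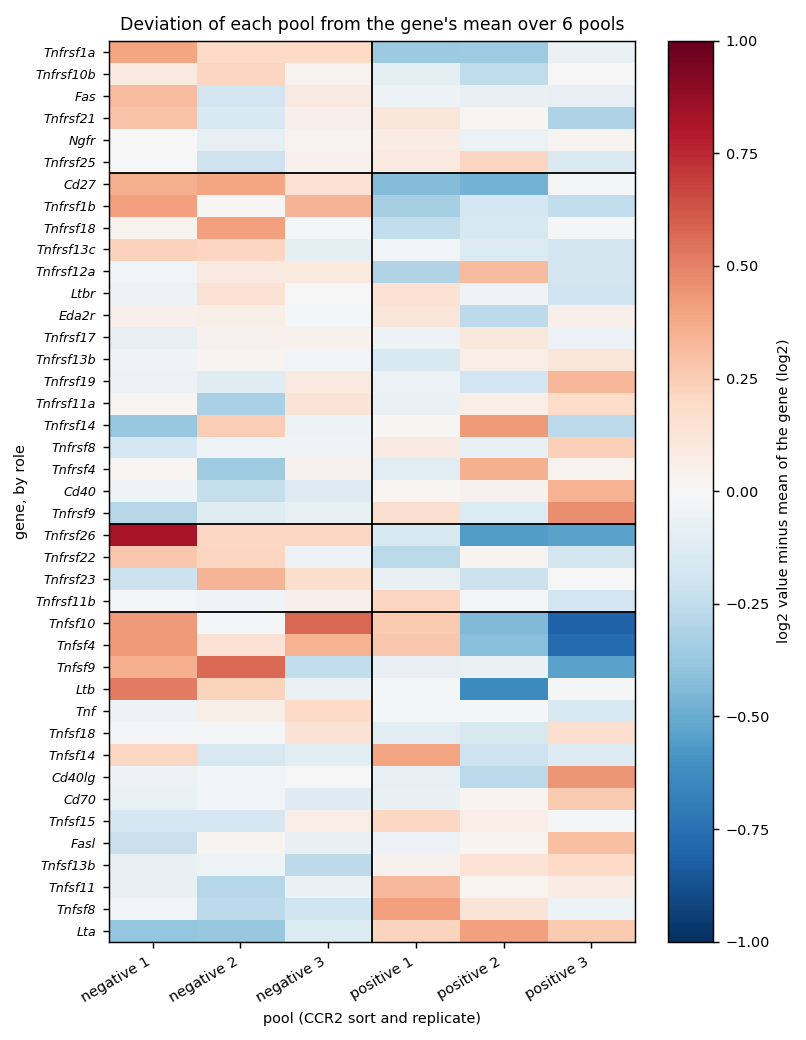
Log2 value of each member (rows) in each pool (columns), minus that gene's mean over the 6 pools. Rows are by listed role: death domain receptors, TRAF-binding receptors, secreted or decoy-type receptors with Tnfrsf26, and ligands. Red is above and blue below the mean; Tnfrsf26 is highest in CCR2-negative replicate 1, and Tnfsf10 and Tnfsf4 are lowest in CCR2-positive replicate 3.

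Ligands differed in both directions. Lta, which encodes lymphotoxin alpha, a secreted ligand of the TNF receptors made by lymphocytes, was the member with the smallest p. Its values were 5.83, 6.02 and 5.87 in CCR2-positive and 5.22, 5.22 and 5.47 in CCR2-negative pools. The groups lay apart, with a difference of 0.60 ± 0.12 or 1.52-fold (limma adjusted p = 0.177, unadjusted p = 6.9e-04), and the unadjusted p stayed under 0.05 in each of the 15 alternatives (adjusted p from 0.118 to 0.475). Lta passed the filter at the median of probe set means (5.54) only through its CCR2-positive pools, since every CCR2-negative pool lay under that level. Passing it therefore adds no support for the difference of Lta. Beside it, the B cell list mean was 5.17 in positive and 5.06 in negative pools, and the T and NK cell list mean 5.37 and 5.29, and their part in the Lta value was not tested.

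The ligands Tnf, Ltb and Tnfsf14 did not show the Lta pattern in their own values. Tnf had 5.89, 5.88 and 5.76 in CCR2-positive and 5.86, 5.97 and 6.10 in CCR2-negative pools, with a difference of -0.13 ± 0.11 and a 95% interval of -0.38 to 0.11. Ltb, the membrane partner of lymphotoxin alpha, had 7.68, 7.05 and 7.66 in positive and 8.20, 7.91 and 7.62 in negative pools. The first and the third positive pool lay above the lowest negative one, and the difference of -0.45 ± 0.21 (limma adjusted p = 0.422) was -0.24 without CCR2-positive replicate 2. Tnfsf14, which encodes LIGHT and binds the lymphotoxin beta receptor, differed by 0.04 ± 0.18, which turned to -0.037 with cyclic loess.

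Tnfsf10 and Tnfsf4 were lower in 2 of the CCR2-positive pools and not in the first. Tnfsf10, which encodes TRAIL, had 6.62, 5.92 and 5.55 in positive and 6.79, 6.35 and 6.94 in negative pools. Tnfsf4, which encodes OX40 ligand, had 5.62, 4.92 and 4.57 in positive and 5.77, 5.49 and 5.69 in negative pools. For these ligands the first positive pool lay inside the range of the negative pools and the third was the lowest of all 6. The differences were -0.66 ± 0.26 for Tnfsf10 (1.58-fold, limma adjusted p = 0.368) and -0.61 ± 0.24 for Tnfsf4 (1.53-fold, limma adjusted p = 0.357). They shrank to -0.42 and -0.38 when CCR2-positive replicate 3 was left out, and grew to -0.96 and -0.90 when the first positive pool was. Of the analyses that leave out 1 pool, 2 of 6 kept an unadjusted p under 0.05 for Tnfsf10, and 2 of 6 for Tnfsf4. The count of ligands lower at that level, 2 with all pools, was 0 when either CCR2-negative replicate 1 or CCR2-positive replicate 2 was left out, and 1 when CCR2-positive replicate 3 was. It was 3 when CCR2-positive replicate 1 was left out.

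The other higher ligands had smaller differences than Lta. Tnfsf8, the CD30 ligand, had 4.95, 4.67 and 4.49 in CCR2-positive and 4.51, 4.28 and 4.35 in CCR2-negative pools (0.32 ± 0.14, limma adjusted p = 0.394), with 1 positive pool below the highest negative one. Tnfsf13b, which encodes the B cell survival factor BAFF, had 5.16, 5.25 and 5.32 in positive and 5.04, 5.07 and 4.85 in negative pools. Its groups lay apart, and the difference was 0.25 ± 0.11 (limma adjusted p = 0.399). Tnfsf11, which encodes RANKL, had groups that lay apart as well, 4.46 to 4.76 against 4.16 to 4.38 (0.28 ± 0.12). Thus 3 of 15 ligands, with Lta, had all positive above all negative pools, beside 10.8% of all genes, and 0 of 15 lay the other way, beside 7.88%. The count of ligands higher at an unadjusted p under 0.05 was 3 with all pools, and 1 when either CCR2-negative replicate 3 or CCR2-positive replicate 1 was left out, or after a second quantile normalization, median centring or cyclic loess. The ligand left was Lta in each of these settings. With array weights, a trended and robust eBayes or averaged probe sets the count was 4.

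The other ligands had limma adjusted p-values of 0.44 or more. Tnfsf9, the 4-1BB ligand, had 5.98, 6.00 and 5.53 in CCR2-positive and 6.43, 6.63 and 5.82 in CCR2-negative pools, a difference of -0.45 ± 0.22 with overlapping groups. It was -0.29 without CCR2-negative replicate 2, -0.30 without CCR2-positive replicate 3 and -0.69 without CCR2-negative replicate 3 (the only pool whose removal took its unadjusted limma p under 0.05). Tnfsf15, a ligand of death receptor 3, differed by 0.18 ± 0.12, Fasl by 0.18 ± 0.13 and Tnfsf18, the GITR ligand, by -0.07 ± 0.12. Cd40lg, the CD40 ligand, differed by 0.06 ± 0.17, which turned to -0.014 with cyclic loess. Means of Cd70 and Tnfsf18 lay under the 25th percentile of probe sets, and 5 of 15 ligands and 14 of 26 receptors lay above the median.

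**Figure D4:**
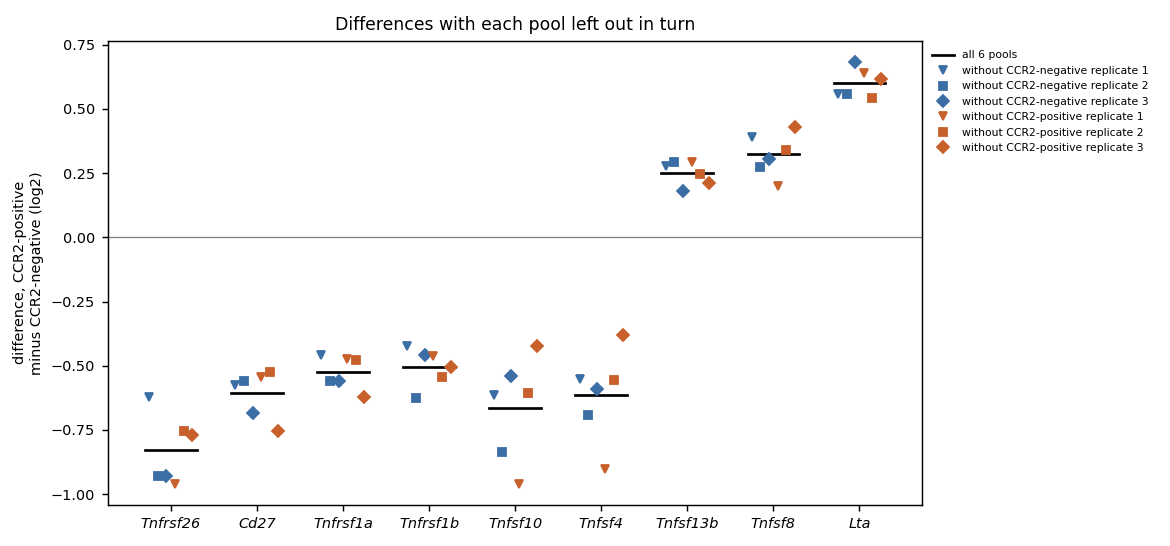
Difference between the groups (log2, y axis) for the 9 members at an unadjusted p under 0.05, with all 6 pools (black line) and with each pool left out in turn (symbols, coloured by the sort of the pool left out). Signs are kept in all 9, and Tnfsf10 and Tnfsf4 move the most, from -0.96 to -0.42 and from -0.90 to -0.38.

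Many members are neighbours in the genome, and the RefSeq gene order places 21 of the 41 in 8 groups with at most 5 coding genes between successive members. The change of the log2 ratio within a pool was compared for all 18 pairs in these groups with a two-sided exact permutation test, which cannot go below p = 0.10 with 3 against 3 pools. Exact permutation p-values ran from 0.10 to 0.70, and from 0.327 to 0.70 after Benjamini-Hochberg adjustment over the 18 pairs. Tnf and Lta are adjacent. The log2 ratio of Tnf to Lta was 0.63 to 0.75 in CCR2-negative and -0.13 to 0.06 in CCR2-positive pools, a change of -0.73 ± 0.07 (exact permutation p = 0.10). The ratio of Ltb to Lta in the same group changed by -1.05 ± 0.36 (exact permutation p = 0.10), with the groups apart. Lta alone differed by 0.60 and was picked from the same arrays, so its ratios to Tnf and Ltb add no independent support. Standard errors of ratio changes come from a plain linear model, not from limma. The ratio of Tnfsf18 to Fasl changed by -0.25 ± 0.10 with the groups only just apart (exact permutation p = 0.10), and Tnfsf18 was among the dimmest members.

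Cd27, Ltbr and Tnfrsf1a lie in 1 group. The ratio of Cd27 to Tnfrsf1a changed by -0.08 ± 0.10 and overlapped between groups (exact permutation p = 0.50). The ratio of Cd27 to Ltbr changed by -0.54 ± 0.25 and that of Ltbr to Tnfrsf1a by 0.46 ± 0.22, and both overlapped as well (exact permutation p = 0.20 each). Tnfrsf1b and Tnfrsf8 are adjacent, and their ratio was 2.21 to 2.74 in negative and 1.68 to 2.06 in positive pools (-0.67 ± 0.19, exact permutation p = 0.10). Tnfrsf1b alone differed by -0.50 and was picked from the same arrays, so this ratio adds no independent support either. The ratios of Tnfrsf26 to Tnfrsf22 and to Tnfrsf23 changed by -0.54 ± 0.26 and -0.63 ± 0.39 with overlapping groups (exact permutation p = 0.20 each).

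The signalling genes behind the receptors were read from 3 lists of 41 genes, of which 35 were measured and the others are not analysed here. None passed an adjusted p of 0.05, and 4 were lower and 0 higher at an unadjusted p under 0.05, beside 6.61% and 5.63% of all genes. Of the TRAF adaptors and ubiquitin ligases 12 of 15 were lower, with a median of -0.13, of the death domain adaptors and cell death genes 5 of 9, with a median of -0.24, and of the kinases 6 of 11, with a median of -0.002, beside 44% of all genes. At an unadjusted p under 0.05 these lists held 1, 2 and 1 lower genes, or 6.67%, 22.2% and 9.09% of each. Birc2, the ubiquitin ligase cIAP1 of the TNFR1 and TNFR2 complexes, had 7.46, 7.11 and 6.88 in CCR2-positive and 7.67, 8.08 and 7.56 in CCR2-negative pools (-0.62 ± 0.18, limma adjusted p = 0.259). Map3k5, the kinase ASK1, had 6.02, 6.08 and 5.87 against 6.45, 6.50 and 6.37 (-0.45 ± 0.11, limma adjusted p = 0.188). In 5 of the 35 genes, Birc2, Map3k5, Mlkl, Xiap and Ikbkb, all positive pools lay below all negative ones, beside 7.88% of all genes. In 0 of the 35 all positive pools lay above all negative ones, beside 10.8% of all genes. Ikbkb had an unadjusted limma p of 0.149. Mlkl, the executor of necroptosis, had 6.74, 6.50 and 6.94 against 7.22, 7.12 and 7.04 (-0.40 ± 0.13, limma adjusted p = 0.295), and Xiap, a caspase inhibitor, differed by -0.24 ± 0.10. Birc2 and Map3k5 kept an unadjusted p under 0.05 in each of the 15 alternatives, Mlkl in 13 and Xiap in 4.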

How the data were processed

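Biotin-labelled RNA of 6 pools of sorted stem cells (5 ng amplified per pool, per the labels' protocols) was measured on arrays. The authors deposited 1 table of log2 values from RMA, per the submitters' processing notes; its version and settings are not stated in the sources used here, and raw intensities were not used here. RMA equalises arrays, so changes are relative to other genes. Of 41345 probe sets, 23521 had 1 gene in the platform annotation, and the highest mean probe set stood for a gene (22180 genes). Depth has no meaning for arrays: their number, 3 per group, limits the precision, and the median SE of a member's difference was 0.129. Groups were compared with limma 3.58.1 in R 4.3.3 (lmFit, eBayes, no covariate), with Benjamini-Hochberg adjustment over all genes and a threshold of 0.05. The design calls the pools biological replicates.

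Members and lists, cell markers included, were chosen with earlier results of these data known. Pool values are given for members at an unadjusted p under 0.05 and for the partners of these. They are also given for the 4 ligands and 6 receptors with the highest means. Those of Fas and Cd40 were added after their values were seen. Signalling genes are named at an unadjusted p under 0.05, and Ikbkb because its pools did not overlap (limma unadjusted p = 0.149). A filter at the 25th percentile of probe set means kept 37 of 41 members, and one at the median kept 19. The code was tested on simulated data. Alternatives were both filters, a second quantile normalization, median centring, cyclic loess, array weights, a trended and robust eBayes, averaged probe sets per gene, a block for the replicate number, and each pool left out. All of them refit the same arrays, so they do not test anew a gene picked by its p in the reported fit. Promoters and gene order came from RefSeq GRCm38.p6, in which all 41 members were found.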

Additional observations from a re-analysis of the deposited data

How the results depend on the processing

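No member passed an adjusted p of 0.05 in any alternative, and 28 of 41 members kept their sign in all of them. Signal over background is unknown, so differences of dim members may be understated. Over all genes 0 passed with all pools and from 0 to 2 with 1 left out (2 without CCR2-positive replicate 1). With all pools, 1467 genes were lower and 1249 higher at an unadjusted p under 0.05. In the alternatives these counts ran from 1060 to 1665 and from 523 to 1557, so the counts of members below move beside moving counts over all genes. At an unadjusted p under 0.05, receptors higher were 0 in the reported fit, 1 with a second quantile normalization, 1 with eBayes trend and robust settings, 1 with array weights, and 0 to 1 with a pool left out; receptors lower were 4 to 6 throughout. Ligands lower were 2 with all pools, 1 without probe sets under the median, 0 with array weights, 3 with median centring, 4 with the replicate block and 0 to 3 with a pool left out. Ligands higher were 3 with all pools, 1 without probe sets under the median, 1 with a second quantile normalization, 1 with median centring, 1 with cyclic loess, and 1 to 2 with a pool left out. They were 2 without probe sets under the 25th percentile, and 4 with eBayes trend and robust settings, with array weights and with averaged probe sets. Without probe sets under the median, with 5 ligands left, the ligand median was -0.449, the median of all genes -0.02, and 523 genes were higher at an unadjusted p under 0.05. The causes were not tested, beyond the fewer genes that a filter leaves.

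The replicate number as a block changed no adjusted call (0 over all genes). It gave 4 ligands lower at an unadjusted p under 0.05, against 2 without it, with Ltb and Tnfsf9 (limma unadjusted p = 0.0067) added, and left the receptors at 4. With the block the standard error of Tnfrsf26 was 0.112, against 0.192 without it, while those of Cd27, Tnfrsf1a and Tnfrsf1b were larger. Same-numbered pools deviated together with r = 0.035, 0.089 and 0.045 across genes. The first and the second CCR2-positive pool each correlated best with the negative pool of its own number. CCR2-positive replicate 3 correlated best with CCR2-negative replicate 1 (r = 0.068). The numbers were therefore not taken as a pairing, though one is not excluded.

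Signs turned for 13 members, all with differences smaller than their standard error. With a second quantile normalization Ngfr was -0.00695, Ltbr 0.0206, Tnfrsf13b -0.0128 and Tnfrsf17 -0.0297, and with median centring Tnfrsf17 was -0.0223. With cyclic loess Cd40lg was -0.0137, Tnfsf14 -0.0368, Ngfr -0.0382, Tnfrsf19 -0.00773, Tnfrsf13b -0.0485 and Tnfrsf17 -0.0666. With array weights Cd40lg was -0.00569, Tnfrsf11b 0.0781, Ltbr 0.029, Tnfrsf19 -0.0109, Tnfrsf13b -0.0313 and Tnfrsf17 -0.0135. With a pool left out the ranges were -0.148 to 0.208 for Cd40lg, -0.148 to 0.152 for Tnfsf14, -0.226 to 0.00412 for Tnfrsf21, -0.00319 to 0.067 for Ngfr, -0.109 to 0.0957 for Tnfrsf11b, -0.0112 to 0.213 for Tnfrsf11a, -0.295 to 0.012 for Tnfrsf12a, -0.0634 to 0.281 for Tnfrsf14, -0.15 to 0.0226 for Ltbr, -0.135 to 0.0534 for Eda2r, -0.092 to 0.17 for Tnfrsf19, -0.0279 to 0.109 for Tnfrsf13b and -0.0515 to 0.029 for Tnfrsf17.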

Other observations

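Some genes of the superfamilies carry other names and fall outside the rule, and they were chosen after the members' values were seen. Eda, which encodes ectodysplasin, had log2 values of 5.48, 4.67 and 5.26 in CCR2-positive and 5.10, 5.17 and 5.14 in CCR2-negative pools, a difference of -0.003 ± 0.19. Its receptor Edar differed by 0.01 ± 0.13 and the adaptor Edaradd by -0.03 ± 0.14. Relt, a receptor of lymphoid tissue, had 5.89, 5.95 and 6.27 in positive and 5.87, 5.75 and 6.07 in negative pools (0.14 ± 0.14). Adam17, the protease that sheds TNF and its receptors, differed by -0.07 ± 0.11. Limma adjusted p-values of these 5 genes were 0.712 to 0.997.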
